A study of Mus musculus with 11 samples.

Results

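Transcripts of 4 inflammatory cytokines, tnfa, Il6, Il12b and Il23a, were followed in the spleens of 11 female mice. They are 4 of the 93 genes of a custom NanoString nCounter probe set and were taken by name, as the proinflammatory cytokines made by activated macrophages and dendritic cells. The study asked whether DNA sensing through cGAS contributes to lupus-like disease in mice, MRL mice among them. The 3 WT/Fas lpr mice (WT/Mrl in the labels) carried the lymphoproliferative Fas mutation on the MRL background with intact cGAS. The 4 cGAS KO/Fas lpr mice (cGAS/Mrl in the labels) shared that background and mutation and had an exon of cGAS removed by CRISPR/Cas9, and the study used WT littermates as the controls of such mice. The labels of these 4 mice do not write KO, and the genotype comes from the methods. The B6 background had 1 uninjected WT mouse, 1 uninjected cGAS KO mouse from a separately made knockout line, and 2 WT mice given DMXAA, which binds and activates STING of mice. All mice without DMXAA were otherwise untreated as far as the labels tell. The methods give ages for other measurements but not for these expression samples, and the dose and time of the injection are not given in the sources used here. No probe for cGAS is on the panel, so the deletion was not checked in the expression data.

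TNF is a trimeric cytokine that acts early on vessels, leukocytes and fibroblasts, and IL-6 drives the acute phase response, plasma cell survival and helper T cell differentiation. Il12b encodes the subunit that IL-12 and IL-23 share, while Il12a and Il23a encode the partners that make it IL-12 or IL-23. All of these genes are transcribed in myeloid cells after toll-like receptor or cytosolic sensing through NF-kB, with interferon regulatory factors acting on some of them, and TNF and IL-6 are measured widely as signs of inflammation in lupus models.

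The deposited signal was, in every mouse, a whole-number count multiplied by 1 factor for that mouse, and the counts were read back from it. Totals over the panel were 28406 to 58404 counts in the 7 Fas lpr mice, 3612 (WT) and 12386 (cGAS KO) in uninjected B6 mice, and 647148 and 600677 after DMXAA. The mice with the lowest totals also had the lowest factors, 0.0823 for B6 WT and 0.297 for B6 cGAS KO, against 0.670 to 1.64 in the others. Deposited signals therefore differed between groups over the whole panel. The median difference of log2(signal + 1) over the 93 genes was 0.07 for cGAS KO/Fas lpr minus WT/Fas lpr, 4.84 for Fas lpr minus uninjected B6, 1.84 for DMXAA minus Fas lpr and 7.87 for DMXAA minus B6 WT. Each cytokine is given here as its relative level, log2(count + 0.5) minus the median of that quantity over the panel in the same mouse, in which the authors' factor cancels. A relative level of 0 is the middle gene of the panel, and differences are differences from a panel of immune genes that itself moved.

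tnfa had the highest count of the 4 cytokines in all 11 mice, and therefore led in each of the 5 groups. Second came Il12b in the 9 mice that received no DMXAA and Il6 in both DMXAA-injected mice. Il23a had the lowest count in every mouse. A count also depends on how well its probe captures, so this is an order of signal and not of transcript number. Counting error was set by 95% Poisson intervals, which cover counting only. The interval of tnfa lay above those of the other 3 in 10 mice and overlapped them in the B6 WT mouse, where the counts were 14 for tnfa, 12 for Il12b, 11 for Il6 and 7 for Il23a. No order was resolved in that mouse. Il6 and Il12b had separate intervals in 6 of 11 mice, namely 4 Fas lpr mice and both DMXAA-injected mice, and Il6 and Il23a in 3 of 11.

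**Figure D1:**
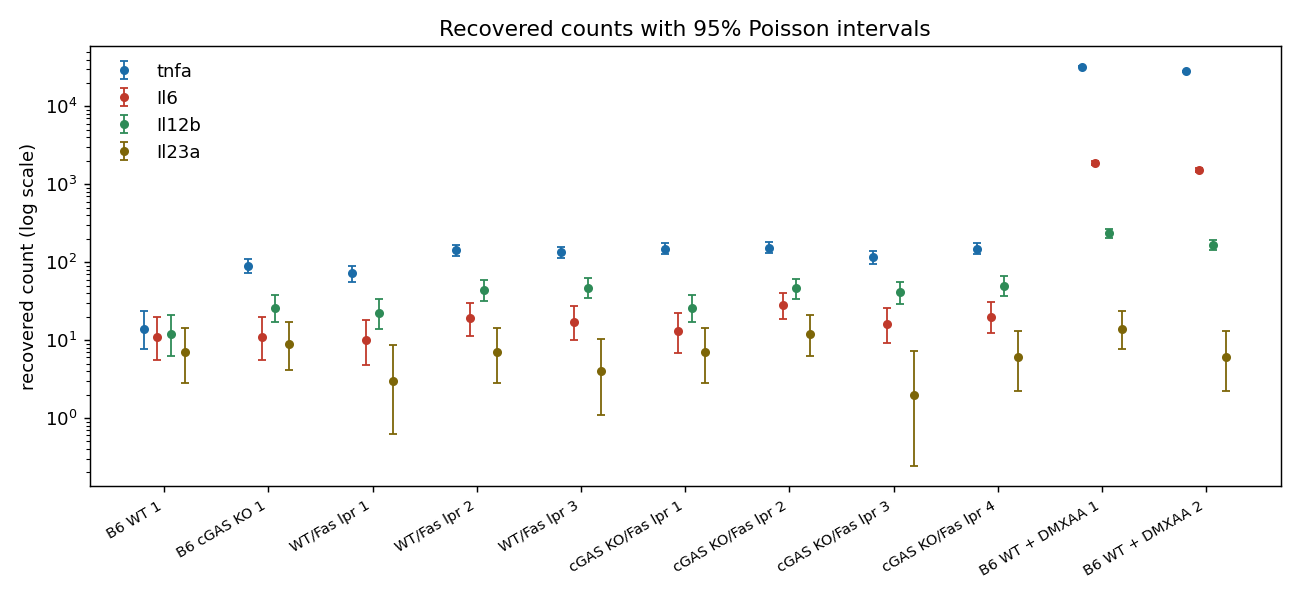
Recovered count of tnfa, Il6, Il12b and Il23a in each of the 11 mice on a log axis, with points for counts and bars for 95% Poisson intervals. tnfa stands at 32362 and 28257 counts after DMXAA and at 14 to 154 counts elsewhere, while Il23a is at 2 to 14 counts throughout.

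tnfa encodes TNF itself. Its counts were 72, 143 and 134 in WT/Fas lpr mice and 150, 154, 116 and 149 in cGAS KO/Fas lpr mice, and relative levels were -0.55, -0.28 and -0.63 in the former and -0.02, -0.39, -0.39 and -0.16 in the latter. The B6 WT mouse had 14 counts and a relative level of -0.57, the B6 cGAS KO mouse 90 counts and 1.31, and the DMXAA-injected mice 32362 and 28257 counts and 5.57 and 5.54. All 7 Fas lpr mice and the B6 WT mouse were thus below the panel median, the 2 Fas lpr genotypes overlapped, the B6 cGAS KO mouse stood above them, and the DMXAA-injected mice were far above all others. By rank, tnfa was the 6th gene of the panel by count in both DMXAA-injected mice, the 27th in the B6 cGAS KO mouse and between the 49th and the 61st in the other 8. It took 5.001% and 4.70% of all panel counts after DMXAA and 0.229% to 0.358% in the Fas lpr mice.

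Il6 encodes IL-6. Counts were 10, 19 and 17 in WT/Fas lpr mice, 13, 28, 16 and 20 in cGAS KO/Fas lpr mice, 11 in each uninjected B6 mouse, and 1879 and 1532 after DMXAA. Relative levels were -3.34, -3.16 and -3.57 in WT/Fas lpr mice and -3.50, -2.83, -3.21 and -3.03 in cGAS KO/Fas lpr mice. Uninjected B6 mice had -0.90 (WT) and -1.67 (cGAS KO), and DMXAA-injected mice 1.46 and 1.34. Il6 was above the panel median only after DMXAA, where it ranked 31st and 33rd, and the 2 Fas lpr genotypes overlapped. The uninjected B6 mice lay above all Fas lpr mice in relative level although their count of 11 was within the Fas lpr range, and the median count of the panel was 21 and 36 in these mice against 106 to 207 in the Fas lpr mice.

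Il12b encodes the shared IL-12 and IL-23 subunit. Its counts were 22, 44 and 47 in WT/Fas lpr mice, 26, 46, 41 and 50 in cGAS KO/Fas lpr mice, 12 (WT) and 26 (cGAS KO) in uninjected B6 mice, and 234 and 168 after DMXAA. The relative levels were -2.24, -1.97 and -2.13 in WT/Fas lpr mice, -2.52, -2.12, -1.88 and -1.73 in cGAS KO/Fas lpr mice, -0.78 (WT) and -0.46 (cGAS KO) in uninjected B6 mice, and -1.54 and -1.85 after DMXAA. Il12b was below the panel median in all 11 mice. DMXAA-injected mice had the highest counts, yet their relative levels fell within reach of the Fas lpr mice, which overlapped them at the upper end.

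Il23a encodes the subunit specific to IL-23. Counts were 3, 7 and 4 in WT/Fas lpr mice, 7, 12, 2 and 6 in cGAS KO/Fas lpr mice, 7 and 9 in the uninjected B6 WT and cGAS KO mouse, and 14 and 6 after DMXAA. Relative levels were -4.93, -4.54 and -5.53 in WT/Fas lpr mice, -4.35, -4.02, -5.93 and -4.69 in cGAS KO/Fas lpr mice, -1.52 (WT) and -1.94 (cGAS KO) in uninjected B6 mice, and -5.55 and -6.54 after DMXAA. The counts of the groups overlapped, whereas the relative levels were highest in the uninjected B6 mice. With no negative-control probes analysed here, whether 2 to 14 counts lie above the background of the assay is unknown. The panel median that Il23a was set against ran from 21 counts in the B6 WT mouse to 681 and 605 after DMXAA.

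**Figure D2:**
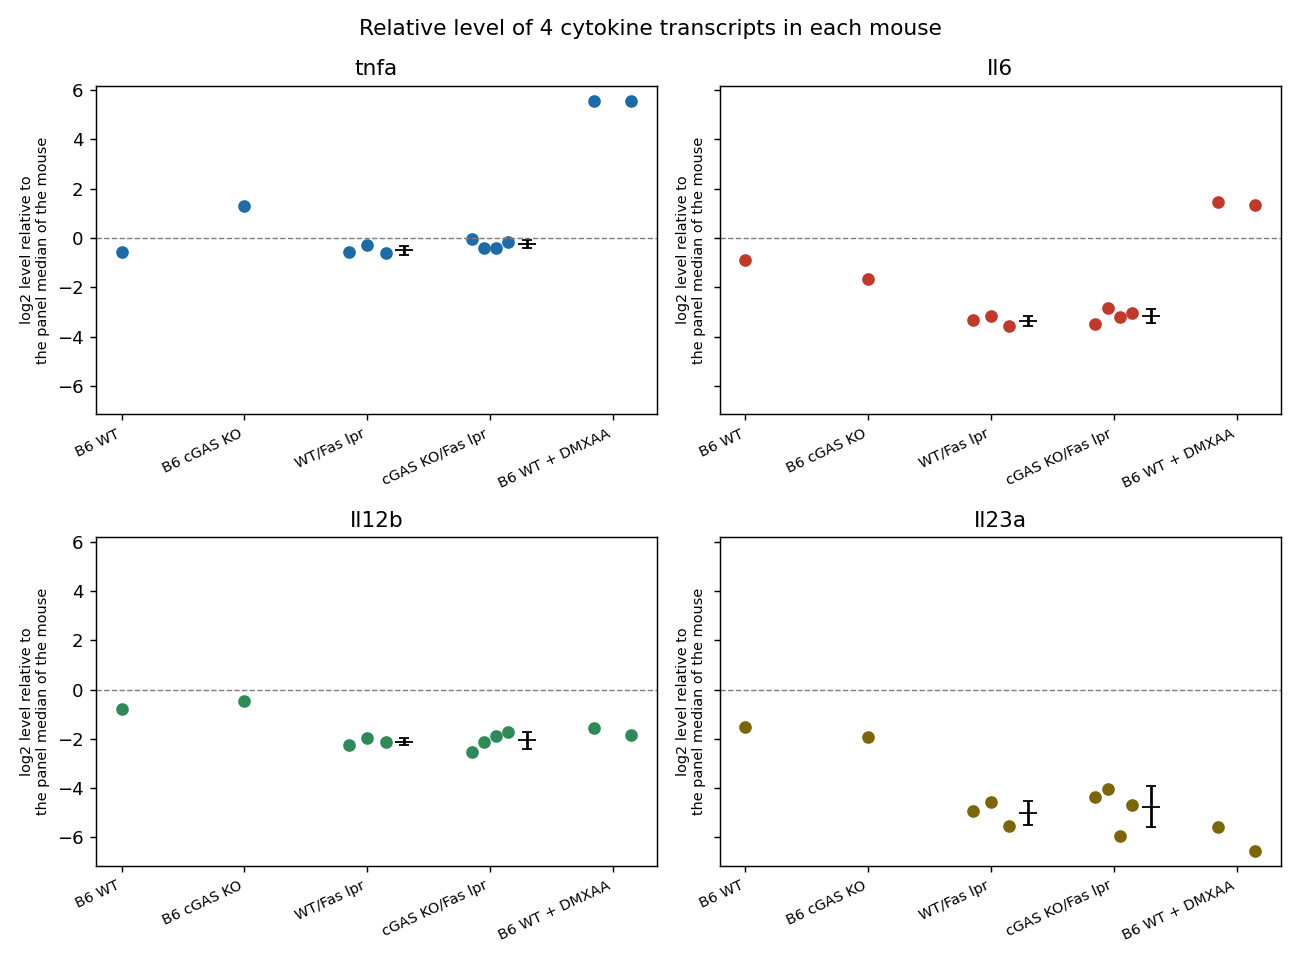
Relative level (log2, 0 is the panel median of the mouse) of each cytokine by group, 1 point per mouse, with mean and SD as bars where a group has 3 or more mice. tnfa and Il6 stand above 0 in the 2 DMXAA-injected mice, at 5.54 and 5.57 and at 1.34 and 1.46, and the 2 Fas lpr genotypes overlap in all 4 panels.

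cGAS KO/Fas lpr mice were compared with WT/Fas lpr mice to look for an effect of cGAS on the diseased background. The mean relative level of tnfa was -0.24 ± 0.18 (SD, n = 4) without cGAS and -0.49 ± 0.18 (SD, n = 3) with it, a difference of 0.25 with a 95% interval of -0.10 to 0.59 (limma, adjusted p = 0.997). For Il6 the means were -3.14 ± 0.28 and -3.36 ± 0.20, and the difference was 0.22 with an interval of -0.20 to 0.64. Il12b differed by 0.05 (interval -0.40 to 0.50) and Il23a by 0.25 (interval -0.75 to 1.25), with the same adjusted p. None of the 4 cytokines was called and none had groups that did not overlap. Over the panel, limma called 0 of 93 genes (0.0%) at an adjusted p under 0.05, and 1 gene had an unadjusted p under 0.05, compared to 3 genes with limma's voom on the counts. The groups did not overlap in 3 of 93 genes (3.23%). By exact two-sided Mann-Whitney test, p was 0.229 for tnfa, 0.400 for Il6 and 0.629 for both Il12b and Il23a, and 4 against 3 mice allow no p below 0.0571. The intervals leave room for changes of up to 0.59 in tnfa and 1.25 in Il23a on the log2 scale, and Il12b and Il23a changed sign when single mice were left out. These are values of unsorted spleen material, which the paper describes as total splenocytes. Fewer cells of a type and less RNA per cell cannot be told apart in it. Of 23 marker genes looked for across B cells, T cells, macrophages, dendritic cells and neutrophils 0 are on the panel.

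DMXAA-injected mice were then set against the 7 Fas lpr mice, the larger of the comparisons with DMXAA. Strain, the Fas mutation with its disease and the injection cannot be told apart in this comparison. The cGAS deletion of 4 of the 7 mice is a further difference. The relative level of tnfa averaged 5.56 after DMXAA and -0.36 over the Fas lpr groups, a difference of 5.92 (SE 0.15, adjusted p = 2.37e-10), which is 60.6-fold relative to the panel median. Il6 averaged 1.40 and -3.25, a difference of 4.65 (SE 0.18, adjusted p = 4.53e-09). Both were higher in the DMXAA-injected mice on every scale tried, from 4.13 to 8.56 for tnfa and from 2.86 to 7.25 for Il6. Il12b differed by 0.40 (SE 0.20, adjusted p = 0.0876) and was not called, but it was called higher on the deposited scale (3.02) and with voom (1.09), and lower with the total of the panel as reference (-1.40). Il23a was lower by a difference of -1.18 (SE 0.47, adjusted p = 0.0386), but higher by 1.33 on the deposited scale and not called with voom (-0.47).

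That call on Il23a also depended on single mice. It was no longer made without WT/Fas lpr mouse 1 (-1.16) or mouse 2 (-1.06), without cGAS KO/Fas lpr mouse 1 (-1.11), mouse 2 (-1.05) or mouse 4 (-1.17), or without DMXAA-injected mouse 2 (-0.68, adjusted p = 0.328). Il12b was called only without cGAS KO/Fas lpr mouse 4 among the mice left out (0.45, adjusted p = 0.0475). Thus 2 of the 4 cytokines were called higher, where the panel had 31 of 93 genes (33.3%), and 1 was called lower, where the panel had 52 (55.9%). The groups did not overlap for tnfa and Il6, as for 82 of 93 genes (88.2%), so separation of these groups was the usual state of the panel. The calls divided into 54 higher and 5 lower for deposited signals, with the total as reference 16 and 69, and with voom 40 and 43.

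Against the single uninjected B6 WT mouse, which shares the strain of the injected mice, the spread was taken from all 11 mice and the lone mouse was assumed to vary like the others. The SE and p in this comparison therefore carry no spread of uninjected B6 WT mice, and the control has a total of only 3612 counts. tnfa rose from a relative level of -0.57 to 5.56, a difference of 6.13 (SE 0.22, adjusted p = 8.24e-09). Il6 rose from -0.90 to 1.40, a difference of 2.30 (SE 0.28, adjusted p = 3.11e-05), which turned to -0.23 with the total of the panel as the reference. Il12b went from -0.78 to -1.69, a difference of -0.91 (SE 0.31, adjusted p = 0.0184), and Il23a from -1.52 to -6.05, a difference of -4.53 (SE 0.72, adjusted p = 0.000208), while both were higher on the deposited scale, by 7.35 and 3.34. Only tnfa was higher on every scale tried, by 3.59 at the least. The Il12b call was not made without DMXAA-injected mouse 2 (-0.76, adjusted p = 0.0797) or with voom (-0.36, adjusted p = 0.480).

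Because the counts of the B6 WT mouse were low, the B6 cGAS KO mouse was also used as the control, a choice made after those counts were seen. The differences were then 4.25 for tnfa, 3.07 for Il6, -1.23 for Il12b and -4.11 for Il23a, with the same 4 directions. The panel had 35 of 93 genes called higher (37.6%) and 47 lower (50.5%) against the B6 WT mouse, so 2 members on each side is close to the panel's own division. That split was 93 and 0 on the deposited scale and 11 and 73 with the total as reference. The comparisons with DMXAA share the injected mice and are not independent of each other.

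The 4 cytokines in Fas lpr mice were next compared with those in the 2 uninjected B6 mice. Strain, the Fas mutation and disease cannot be told apart in this comparison. Relative levels were lower in Fas lpr mice for all 4, and higher for all 4 on the deposited scale. The differences in relative level were -0.73 for tnfa (SE 0.15, adjusted p = 0.00156), -1.96 for Il6 (SE 0.18, adjusted p = 1.55e-05), -1.47 for Il12b (SE 0.20, adjusted p = 0.000199) and -3.14 for Il23a (SE 0.47, adjusted p = 0.000356). On log2(signal + 1) they were 4.07, 2.67, 3.26 and 1.40, all smaller than the panel's median shift of 4.84. How many panel genes separated these groups was not counted, so nothing is drawn from separation here. Il6, Il12b and Il23a stood lower within the panel in all Fas lpr mice than in both B6 mice, whereas tnfa overlapped. Deposited signals of Il23a overlapped too, with 2.01 in WT/Fas lpr mouse 1 and 1.65 in cGAS KO/Fas lpr mouse 3 against 2.67 in the B6 cGAS KO mouse. The difference in tnfa rested on the B6 cGAS KO mouse, and was 0.20 without it (adjusted p = 0.395) and -1.67 without the B6 WT mouse. With voom it was -0.62 and not called (adjusted p = 0.0694), and 23 panel genes were called lower. Between WT mice alone it was 0.08 for tnfa, -2.45 for Il6, -1.33 for Il12b and -3.48 for Il23a. The 4 calls were all on the lower side, where the panel had 38 of 93 genes (40.9%), against 26 higher (28.0%), and the deposited scale had 93 higher and 0 lower. The 2 B6 mice had counts of only 7 to 26 for Il6, Il12b and Il23a, and the part of assay background in these differences was not tested.

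The effect of the cGAS deletion could be set between backgrounds only with 1 mouse of each genotype on B6. In B6 the relative level of tnfa was -0.57 with cGAS and 1.31 without it, whereas in Fas lpr mice the means were -0.49 and -0.24. With the spread borrowed from the other groups, the effect in Fas lpr minus that in B6 was -1.63 (SE 0.29, adjusted p = 0.00223), and -0.63 with the total as reference and -1.06 with voom, both not called. For Il6 this difference was 0.98 (SE 0.36, adjusted p = 0.0677), for Il12b -0.27 and for Il23a 0.68, none of them called. Il6 was called with the total as reference (1.98), on centred log2(signal + 1) (1.13) and without cGAS KO/Fas lpr mouse 1 (1.10), and turned to -0.89 on the deposited scale. Il12b turned to 0.73 with the total as reference, 0.45 with counts under 20 raised to 20, 0.30 with voom and 0.0083 on centred log2(signal + 1), and Il23a to -0.91 on the deposited scale. Over the panel 26 of 93 genes were called on the lower side (28.0%) and 5 on the higher side (5.38%), so a call such as that of tnfa was made for more than 1 gene in 4. The split was 0 higher and 29 lower on the deposited scale, 34 and 8 with the total as reference, and 4 and 8 with voom. With 1 mouse per genotype a difference between these 2 B6 mice and an effect of the deletion cannot be told apart.

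The ratio of 2 cytokines in 1 mouse is free of any scale shared by the panel. The log2 ratio of Il6 to Il12b was -1.10, -1.19 and -1.44 in WT/Fas lpr mice, -0.97, -0.71, -1.33 and -1.30 in cGAS KO/Fas lpr mice, -0.12 (WT) and -1.20 (cGAS KO) in uninjected B6 mice, and 3.00 and 3.19 after DMXAA. This ratio was below 0 in all 9 mice without DMXAA and above 0 in both with it. The log2 ratio of tnfa to Il6 was 2.79, 2.88 and 2.94 in WT/Fas lpr mice, 3.48, 2.44, 2.82 and 2.87 in cGAS KO/Fas lpr mice, 0.33 (WT) and 2.98 (cGAS KO) in uninjected B6 mice, and 4.11 and 4.20 after DMXAA. Here the B6 WT mouse was the lowest and the DMXAA-injected mice the highest, and the Fas lpr genotypes overlapped.

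Between DMXAA-injected and Fas lpr mice, 5 of the 6 ratios between the cytokines did not overlap. Ratios of other panel genes were not counted, and 82 of 93 single genes (88.2%) did not overlap either. The separation is therefore not read as particular to these cytokines. The difference in mean log2 ratio was 1.27 for tnfa over Il6, 5.51 for tnfa over Il12b, 7.10 for tnfa over Il23a, 4.24 for Il6 over Il12b and 5.83 for Il6 over Il23a. Each had an exact two-sided permutation p of 0.0556, the smallest that 2 against 7 mice allow, and 0.0667 after adjustment over the 6 ratios. Il12b over Il23a differed by 1.59 with overlap (exact permutation p = 0.111). These 5 differences kept their sign when counts under 20 were raised to 20 and when any single mouse was left out. Il6 had only 10 to 28 counts in the Fas lpr mice and the background of the assay is unknown, so no order of rise between tnfa and Il6 is drawn from their ratio. Between the Fas lpr genotypes the 6 ratios differed by -0.20 to 0.20, all with overlap and exact permutation p of 0.514 to 1.

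Il12a, the IL-12 partner of Il12b, was set beside it after its values were seen, and carries no test of the pair. Its counts were 44, 99 and 97 in WT/Fas lpr mice, 69, 115, 62 and 61 in cGAS KO/Fas lpr mice, 24 (WT) and 36 (cGAS KO) in uninjected B6 mice, and 22 and 23 after DMXAA. Among the IL-12 and IL-23 subunit genes, only Il12a thus had lower counts after DMXAA than in every Fas lpr mouse. In deposited signal it did not lie below all of them, with 35.5 and 37.7 after DMXAA and 29.5 in WT/Fas lpr mouse 1. The count ratio of Il12b to Il12a was 0.377 to 0.820 in the 9 mice without DMXAA and 10.6 and 7.30 with it. In relative level Il12a differed by -3.69 between DMXAA-injected and Fas lpr mice (SE 0.19, adjusted p = 3.23e-08) and by -0.12 between the Fas lpr genotypes (adjusted p = 0.997).

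Patterns over the mice were compared with the other panel genes that had a mean count of at least 20, which 83 genes and 3 of the 4 cytokines did, Il23a being the exception. Il6 passed only through the DMXAA-injected mice, with 10 to 28 counts in the other 9. Over all 11 mice, the genes most like tnfa by Pearson's r of relative level were Ifit2 (0.98), ccl4 (0.98) and viperin (0.98). Those most like Il6 were Ifnb1 (0.99), Ifna4 (0.98) and Il15 (0.96). In the 9 mice without DMXAA, Ifnb1 had 9 to 23 counts, Ifna4 3 to 14 and Il15 6 to 30. These genes too were high only after DMXAA, and nothing is drawn from their likeness to Il6. Nearest to Il12b were socs3 (0.89), eya4 (0.86) and tlr3 (0.80), and to Il23a nos2 (0.92), Irf2 (0.88) and Irf5 (0.76). Il23a had only 2 to 14 counts, set against a panel median of 21 to 681, so nothing is drawn from its nearest genes. These 11 points fall into separate groups and share the DMXAA-injected and low-count B6 mice, so the values describe group differences. Within the 7 Fas lpr mice other genes came first, with cxcl9 (0.86), cxcl10 (0.76) and Ifng (0.75) for tnfa and tlr7 (0.88), md2 (0.87) and ccr1 (0.85) for Il12b. None of the 3 genes nearest to tnfa or to Il12b was the same in both sets of mice. The values over 7 mice are the highest of many correlations and were not tested, so nothing is drawn from them. Il6 and Il23a, at 10 to 28 and 2 to 12 counts in these 7 mice, were not compared there.

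Other genes of the same pathway were taken from fixed lists and counted beside the panel, whose median difference between DMXAA-injected and Fas lpr mice was -0.81 in relative level, with 33.3% of genes called higher and 55.9% lower. Of 14 other cytokines on the panel, 4 were called higher and 9 lower in DMXAA-injected than in Fas lpr mice, with a median of -2.70. This division was close to that of the panel. The deposited scale had 6 higher and 1 lower, and the total of the panel 3 and 11. Ifnb1 (9.80), Ifna4 (7.35) and Il15 (2.75) were higher on each scale compared for the lists (relative level, deposited, total of the panel and voom), and Il1ra (1.33) on all but the total of the panel. Il-1b, like TNF a first-line product of macrophages, was lower by a difference of -6.05, and lower on each of these scales. The cytokines on the panel therefore did not all differ from Fas lpr mice in the direction of tnfa and Il6. Against the B6 WT mouse the difference in Il-1b was -6.25 in relative level, but Il-1b was higher on the deposited scale.

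Of 7 other inflammatory products, mostly chemokines, 4 were called higher and 1 lower than in Fas lpr mice, with a median of 1.48, beside 33.3% and 55.9% of the panel. The counts were 7 and 0 on the deposited scale, 3 and 3 with the total as reference, and 6 and 0 with voom. ccl4 had the largest of these differences, at 8.25, followed by cxcl2 (5.49) and cxcl1 (2.86), all higher on each scale. ccl5 was higher by 1.48, turning to -0.32 with the total as reference, and nos2 was lower (-1.23) but higher on the deposited scale. Against the B6 WT mouse 5 of the 14 cytokines were called higher and 9 lower, and 6 of the 7 products higher and 1 lower, beside 37.6% higher and 50.5% lower over the panel. On the deposited scale all of them were higher, and with the total as reference 1 cytokine was higher and 12 lower, and 3 products higher and 2 lower.

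Upstream of these genes, 12 genes of the toll-like receptor route were on the panel, namely receptors, myd88, unc93b and Irf5. Relative to Fas lpr mice 2 were called higher after DMXAA and 7 lower, with a median of -1.16, beside 33.3% and 55.9% of the panel. The counts were 6 and 2 on the deposited scale, 1 and 11 with the total as reference, and 5 and 6 with voom. tlr2 was higher by 2.80, and higher on each scale. tlr4 and myd88, which signal toward NF-kB, differed by -0.06 each in relative level. Both were called higher on the deposited scale and with voom, and lower with the total as reference. Of 8 NF-kB factors and feedback genes, 4 were called higher and 4 lower, with a median of -0.61, beside 33.3% and 55.9% of the panel, and the counts were 4 and 0 on the deposited scale and 1 and 7 with the total as reference. The higher ones were the inhibitors socs1 (2.45), a20 (1.43), IkBa (1.11) and socs3 (0.58), of which socs1 alone was higher on each scale, and socs3 was lower (-1.11) against the B6 WT mouse. The inhibitors IrakM (-1.94) and duba (-3.60) were called lower. Both NF-kB precursor genes, nfkb1 (-1.79) and nfkb2 (-2.94), were called lower in relative level, but not on the deposited scale. Of 12 receptors and lineage factors looked for downstream of the cytokines 2 are on the panel, both called lower, and neither called on the deposited scale.

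Between the Fas lpr genotypes 0 genes of any list were called, and list medians lay between -0.13 and 0.01. Against uninjected B6, Fas lpr mice had 2 of the 14 cytokines called higher and 10 lower in relative level, and 2 of 7 products higher and 3 lower, beside 28.0% higher and 40.9% lower over the panel, while on the deposited scale all 14 and all 7 were higher. tgfb1, ccl5 and cxcl6 were called higher in relative level, on the deposited scale, with the total as reference and with voom.

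The promoters of tnfa and Il6 are shown because both were higher in relative level after DMXAA, Il6 against the B6 WT mouse not with the total of the panel as reference (-0.23). All 4 cytokines were paired with a RefSeq symbol and 3 with a RefSeq promoter of 300 bases around the start of the gene (build GRCm38.p6). The NF-kB consensus motif and the AP-1 motif TGANTCA were searched on both strands. The Tnf promoter lies at chr17:35201958-35202257 on the minus strand and the Il6 promoter at chr5:30012864-30013163 on the plus strand, and capitals mark matches to these motifs.
Tnf: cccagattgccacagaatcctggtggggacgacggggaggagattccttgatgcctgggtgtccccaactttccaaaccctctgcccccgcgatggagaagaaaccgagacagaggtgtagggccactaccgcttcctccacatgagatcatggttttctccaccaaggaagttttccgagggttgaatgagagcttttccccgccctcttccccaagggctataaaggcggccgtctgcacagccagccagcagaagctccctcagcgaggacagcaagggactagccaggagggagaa
Il6: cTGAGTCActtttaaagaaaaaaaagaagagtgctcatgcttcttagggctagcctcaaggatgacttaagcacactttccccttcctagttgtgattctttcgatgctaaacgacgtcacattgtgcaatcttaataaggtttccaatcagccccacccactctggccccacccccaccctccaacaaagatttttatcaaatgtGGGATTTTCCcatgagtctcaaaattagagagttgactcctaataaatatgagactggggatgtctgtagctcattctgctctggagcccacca
Il6 held the NF-kB consensus at bases 207 to 216 of the window, as did 8.46% of 32851 promoters of this length, and the AP-1 motif at bases 2 to 8, as did 7.81%. Neither motif was in the Tnf window or in the Il12b window, at chr11:44399813-44400112 on the plus strand, which says only that these letters are absent there. A looser form of the NF-kB motif, with any bases between the outer G and C runs, was in both the Tnf and the Il6 window and in 50.8% of promoters. The motifs were chosen with the values known, and no match was tied to a value by a test.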

How the data were processed

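Spleen RNA of 11 mice, 50 ng for each hybridization, was counted on the nCounter system. The authors normalized the signal to housekeeping genes, which are not named in the sources used here, and deposited it on a linear scale. All 1023 values were whole multiples of 1 factor per mouse (within 0.001), and the whole numbers are called counts. They are not used in a count model as the main test, since the deposited unit is a normalized signal.

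Two-sided tests of relative levels used lmFit and eBayes of limma 3.58.1 in R 4.3.3. Adjusted p (Benjamini-Hochberg) covered all 93 panel genes, and genes under 0.05 were called. The Fas lpr genotypes were compared within their 7 mice. The other comparisons used all 11 mice in 5 groups, with equal weight for the groups on a side. The fit was tested on simulated data. Ratios and rank tests were exact (SciPy 1.17.1, Python 3.11.15), and figures were drawn with Matplotlib 3.10.9. Chi-square of counts between mice of a group was 2.91 to 27.1 per degree of freedom, so no mouse was counted as a repeat of another.

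The members and lists were chosen with earlier results of these data known. Named genes are the 4 cytokines, the 3 panel genes most like each by Pearson's r, and list genes. Alternatives were the deposited scale, log2(signal + 1) centred, a pseudocount of 2, the total of the panel as reference, counts under 20 raised to 20, genes with a mean count of at least 20, robust eBayes with trend, voom, other controls, the mouse number as a block, exact tests, and leaving out each mouse. Groups follow the labels.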

Additional observations from a re-analysis of the deposited data

Results flagged for a closer look

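One result met a rule for a second look. The effect of the cGAS deletion on the relative level of tnfa differed between backgrounds, by -1.63 on the log2 scale (effect in Fas lpr minus effect in B6, limma, adjusted p = 0.00223). It compares 1 B6 mouse of each genotype, with 14 and 90 tnfa counts, and its p borrows the spread of other groups, so it cannot tell an effect of the deletion from a difference between these 2 mice. It was no longer called with the total of the panel as reference or with voom. Leaving out single Fas lpr mice gave -1.71 to -1.53. Of 14 sets of values in the 4 cGAS KO/Fas lpr mice (levels, signals and ratios of the cytokines), 0 had an extreme mouse past Dixon's critical value.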

How the results depend on the processing

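The rise of tnfa after DMXAA kept its direction and its call under all alternatives, 12 against B6 WT and 18 against Fas lpr mice, as did that of Il6 under 18 against Fas lpr mice. Between the Fas lpr genotypes 0 genes were called under any of the 17 alternatives fitted over the panel. For changes named below without a reason, the cause was not tested.

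The deposited scale keeps the shift of the whole panel and adds to it the difference in the factors. From the B6 WT mouse to the DMXAA-injected mice the median count went from 21 to 681 and 605. The median signal went from 1.73 to 1098 and 992. On the deposited scale DMXAA minus B6 WT had 93 genes higher and 0 lower, with Il12b at 7.35 and Il23a at 3.34. Fas lpr minus B6 also had 93 and 0, with 4.07 for tnfa, 2.67 for Il6, 3.26 for Il12b and 1.40 for Il23a. DMXAA minus Fas lpr had 54 and 5, with Il12b called at 3.02 and Il23a at 1.33. The effect in Fas lpr minus that in B6 had 0 higher, with Il6 at -0.89 and Il23a at -0.91.

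With the total of the panel as reference, DMXAA minus B6 WT had 11 higher and 73 lower and Il6 at -0.23, and DMXAA minus Fas lpr had 16 higher and Il12b at -1.40. The difference between backgrounds then had 34 higher and 8 lower, with tnfa at -0.63, Il6 called at 1.98 and Il12b at 0.73. With voom, Il12b was not called in DMXAA minus B6 WT (-0.36), 23 genes were lower and tnfa was not called (-0.62) in Fas lpr minus B6, and DMXAA minus Fas lpr had Il12b called at 1.09 and Il23a not called at -0.47. Between backgrounds voom had 8 lower, tnfa not called at -1.06 and Il12b at 0.30. Centred log2(signal + 1) gave 8 higher there, Il6 called at 1.13 and Il12b at 0.0083, and Il6 was called at 0.98 with fewer genes tested (mean count of at least 20), a filter it passed only through the DMXAA-injected mice, and nothing is drawn from this call. Raising counts under 20 to 20 gave Il12b 0.45 between backgrounds, and between the Fas lpr genotypes Il6 at 0.025, Il23a at -0.096 and the ratios tnfa over Il23a at 0.34, Il6 over Il12b at -0.027, Il6 over Il23a at 0.12 and Il12b over Il23a at 0.15. A pseudocount of 2 gave tnfa over Il23a 0.036. With WT mice only, tnfa was 0.081 in Fas lpr minus B6, and Il23a -1.05 in DMXAA minus Fas lpr, not called.

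Leaving out each mouse gave, between the Fas lpr genotypes, 0.11 to 0.33 for Il6, -0.061 to 0.20 for Il12b and -0.012 to 0.65 for Il23a. For the ratios it gave -0.16 to 0.19 (tnfa over Il6), -0.031 to 0.31 (tnfa over Il12b), -0.35 to 0.29 (tnfa over Il23a), 0.042 to 0.25 (Il6 over Il12b), -0.41 to 0.22 (Il6 over Il23a) and -0.66 to 0.084 (Il12b over Il23a). In Fas lpr minus B6 tnfa was -1.67 to 0.20. In DMXAA minus Fas lpr Il12b was 0.24 to 0.55 and Il23a -1.67 to -0.68, and in DMXAA minus B6 WT Il12b was -1.06 to -0.76. Between backgrounds Il6 was 0.87 to 1.10, called without cGAS KO/Fas lpr mouse 1.

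With the mouse number as a replicate block (mice 1 to 3 of each Fas lpr group) Il12b was -0.061 and 0 genes were called. Deviations of same-numbered mice correlated at -0.21, 0.25 and 0.09, and 1 of 3 WT/Fas lpr mice was most like its own number. With only 3 pairs this can neither show nor exclude a shared litter or day, and the labels give only a number.

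Depth limits Il23a everywhere, and Il6 and Il12b outside DMXAA, since counts of 2 to 50 carry wide counting intervals, and the background of the assay is unknown. The lone B6 mice have no replicate, and 4 against 3 or 2 against 7 mice cannot reach 0.05 by exact tests.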
